A study of Mus musculus with 8 samples.

Results

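The Tspan8neg MHCIIlo subset of mouse medullary thymic epithelial cells (mTECs) was measured by RNA-seq in 2 of the 8 libraries of the series and was set against the 6 libraries of the Tspan8neg MHCIIhi, Tspan8pos MHCIIhi and Tspan8pos MHCIIlo subsets, 2 libraries each. A gene was taken as a member when its normalized count (the count divided by the size factor of the library) lay above all 6 other libraries in both Tspan8neg MHCIIlo libraries, or below all 6 in both. Of the 25466 genes of the table, 3168 lay above and 2782 lay below. These values chose the genes, so they are given as a description and without a test, whereas the tests below compare the labelled subsets over all genes.

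All 4 subsets were sorted from the thymus of untreated wild-type BL6N6 mice aged 4 to 6 weeks, as live CD45neg Epcampos CDR1neg cells, and were split by surface Tspan8, a tetraspanin, and by surface MHC class II. No transgene or deletion was present in any group. The sources used here do not say how many mice went into a library, or whether the 2 biological replicates of a subset came from separate mice, so the p-values cover only the spread between these libraries.

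The medulla of the thymus is where maturing T cells are tested against self-antigens displayed by mTECs. Cells with little MHC class II include immature mTECs, which make Ccl21a, the ligand of Ccr7 that draws selected thymocytes into the medulla, and also late cells that have passed the Aire stage. Podoplanin (Pdpn) is a surface glycoprotein of junctional epithelial cells near the border of cortex and medulla. Mature mTECs express Aire, a regulator of tissue-restricted antigens, and later stages take on keratinocyte-like, Tuft, microfold and other programmes that resemble peripheral epithelia.

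Upstream sequence is shown for genes that stand on either side of the comparison, chosen after their values were seen. Ccl21a and Pdpn are the 2 markers of the subset, Cxcl12, Col6a1 and Krt14 are a chemokine, a collagen chain and a basal keratin that were above all 6 others, and Hal, histidine ammonia-lyase, was below all 6 with the widest gap after Prn. Each line holds the 250 bases before the start of the gene from RefSeq (build GRCm38.p6), 5′ to 3′ on the strand of the gene, with capitals where 1 of 4 motifs was found on either strand. The first motif was TATAAA, found in many core promoters, the second GGGCGG, bound by Sp1 family factors, the third TGANTCA, bound by AP-1, and the fourth GGAATG, bound by TEAD factors. They were present in 12.4%, 32.7%, 6.75% and 12.6% of the 32851 upstream windows of this length.
Ccl21a (chr4:42773992-42774241, minus strand): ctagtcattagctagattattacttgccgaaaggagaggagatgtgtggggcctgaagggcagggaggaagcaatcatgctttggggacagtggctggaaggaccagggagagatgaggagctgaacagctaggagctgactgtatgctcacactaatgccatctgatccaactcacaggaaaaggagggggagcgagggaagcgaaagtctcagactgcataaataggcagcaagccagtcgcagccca
Pdpn (chr4:143299565-143299814, minus strand): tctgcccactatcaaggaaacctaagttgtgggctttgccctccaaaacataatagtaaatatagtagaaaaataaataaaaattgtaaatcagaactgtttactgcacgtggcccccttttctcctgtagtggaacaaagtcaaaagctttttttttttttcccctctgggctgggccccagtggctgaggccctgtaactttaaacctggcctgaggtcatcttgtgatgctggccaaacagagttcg
Cxcl12 (chr6:117168285-117168534, plus strand): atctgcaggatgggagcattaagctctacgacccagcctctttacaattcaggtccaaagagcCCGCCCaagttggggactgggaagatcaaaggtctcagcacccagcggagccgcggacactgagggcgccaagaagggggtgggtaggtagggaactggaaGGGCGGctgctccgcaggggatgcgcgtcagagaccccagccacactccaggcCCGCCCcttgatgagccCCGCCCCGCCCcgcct
Col6a1 (chr10:76726045-76726294, minus strand): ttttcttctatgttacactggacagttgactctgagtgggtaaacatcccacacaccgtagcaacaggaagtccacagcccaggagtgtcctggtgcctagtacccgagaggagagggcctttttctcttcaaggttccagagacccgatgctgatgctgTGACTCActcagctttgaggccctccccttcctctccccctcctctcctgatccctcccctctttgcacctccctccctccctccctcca
Krt14 (chr11:100206031-100206280, minus strand): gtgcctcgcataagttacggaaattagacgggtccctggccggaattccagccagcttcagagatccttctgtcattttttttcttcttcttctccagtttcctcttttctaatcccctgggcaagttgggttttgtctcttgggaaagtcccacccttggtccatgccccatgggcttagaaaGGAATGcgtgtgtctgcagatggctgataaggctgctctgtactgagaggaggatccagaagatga
Hal (chr10:93488518-93488767, plus strand): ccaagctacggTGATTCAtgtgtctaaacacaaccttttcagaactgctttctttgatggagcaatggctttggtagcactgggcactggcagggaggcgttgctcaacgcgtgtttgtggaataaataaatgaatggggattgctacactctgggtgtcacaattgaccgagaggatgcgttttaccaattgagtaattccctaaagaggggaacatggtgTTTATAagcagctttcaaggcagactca
The windows of Ccl21a and Pdpn held none of the 4 motifs. The window of Cxcl12 held 5 copies of GGGCGG, that of Col6a1 1 copy of TGANTCA, that of Krt14 1 copy of GGAATG, and that of Hal 1 copy each of TATAAA and TGANTCA. A comparison of motif shares between the gene sets was void, because only 77.0% of the genes above and 75.1% of the genes below that passed the naming filters had a window.

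Library totals ranged from 1941518 to 7783841 counts, with 3456419 and 3928879 in the Tspan8neg MHCIIlo libraries. The 2 Tspan8neg MHCIIlo libraries differed from each other more than the replicates of any other subset. Of the genes whose mean in a subset reached 50 normalized counts, 441 were at least 2-fold apart between them, against 29 in Tspan8neg MHCIIhi, 30 in Tspan8pos MHCIIhi and 84 in Tspan8pos MHCIIlo. Transcripts of the mitochondrial protein-coding genes took 1.61% and 1.54% of the counts in Tspan8neg MHCIIlo and 0.556% to 0.741% in the other 6 libraries, and 10 of these 13 genes lay above all 6.

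The gap between the replicates ran along gene groups. Of 29 thymocyte genes with a mean of at least 10 normalized counts, 29 were higher in replicate 2, with a median ratio of 2.59 of replicate 2 to replicate 1. Of 35 genes of basal adhesion and basement membrane, only 3 were higher in replicate 2 and the median ratio was 0.702, and of 36 interferon-stimulated genes 1 was higher in replicate 2 with a median ratio of 0.722. The lists below that turn on this are also given without replicate 1 and without replicate 2.

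**Figure D1:**
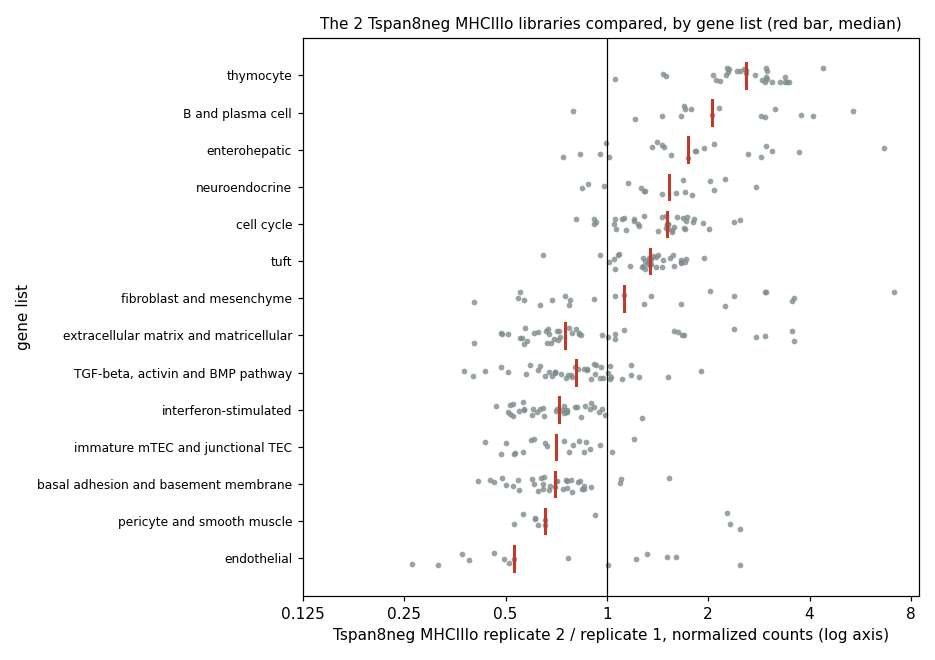
Ratio of Tspan8neg MHCIIlo replicate 2 to replicate 1 in normalized counts (horizontal axis, log scale) for each gene of 14 lists with a mean of at least 10 normalized counts (grey points) and the median of each list (red bar). Thymocyte and B and plasma cell genes lie to the right with medians of 2.59 and 2.05, and endothelial and pericyte genes to the left with medians of 0.53 and 0.655.

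Tspan8 was at 16.3 and 64.5 normalized counts in Tspan8neg MHCIIlo and at 33.3 to 40.9 in Tspan8neg MHCIIhi, against 1558 to 1818 in the 4 Tspan8pos libraries. H2-Ab1, an MHC class II chain, was at 9247 and 7504 in Tspan8neg MHCIIlo. It was at 23471 and 23933 in Tspan8neg MHCIIhi, at 10926 and 11825 in Tspan8pos MHCIIhi and at 2322 and 2154 in Tspan8pos MHCIIlo, so the subset was lower than Tspan8neg MHCIIhi (log2 fold change -1.42 ± 0.12 (SE), edgeR adjusted p = 9.76e-06) and higher than Tspan8pos MHCIIlo (1.91 ± 0.13, adjusted p = 9.18e-07). Since the cells were sorted by surface MHC class II, the H2-Ab1 difference from Tspan8neg MHCIIhi is only a check of the sort. Epcam was at 2309 and 1620.4, below the range of 2385 to 4846 in the other libraries.

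The markers Ccl21a and Pdpn were both high in the subset. Ccl21a was at 19066 and 12501 normalized counts in the Tspan8neg MHCIIlo libraries and at 1017 to 2817 in the other 6, a log2 fold change of 3.36 ± 0.16 (SE) against the mean of the other 3 subsets (edgeR adjusted p = 3.55e-07). Pdpn was at 344 and 173 against 26.9 to 71.5, a log2 fold change of 2.83 ± 0.27 (adjusted p = 1.39e-05). The groups did not overlap for either gene. Gm21541, listed by RefSeq as Ccl21d, was also above all 6 with 3603 and 2163 against 301 to 488, but it is a copy of the Ccl21 gene and how reads were split between the copies is uncertain. Ccl21a also overlaps 4930578G10Rik on the opposite strand.

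Over all 17006 genes tested, 1630 (9.58%) were called higher and 1848 (10.9%) lower in Tspan8neg MHCIIlo than the mean of the other 3 subsets, where a call needed an adjusted p under 0.01 together with a change of 1 or more on the log2 scale. The median log2 fold change over all genes tested was 0.013. Of the tested genes, 2762 (16.2%) lay above and 2604 (15.3%) below all 6 other libraries. Most of these gaps were narrow. Among members with a mean of at least 50 normalized counts, the lower of the 2 Tspan8neg MHCIIlo libraries was at least 2 times the highest other library for 207 of 1861 genes above, and 306 of 1863 genes below were as far under the lowest other library. Against single subsets, 1644 genes (9.67%) were called higher and 2222 (13.1%) lower than Tspan8neg MHCIIhi, 1759 (10.3%) higher and 2445 (14.4%) lower than Tspan8pos MHCIIhi, and 1588 (9.34%) higher and 2052 (12.1%) lower than Tspan8pos MHCIIlo. These 3 comparisons share the Tspan8neg MHCIIlo libraries and are given side by side only.

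**Figure D2:**
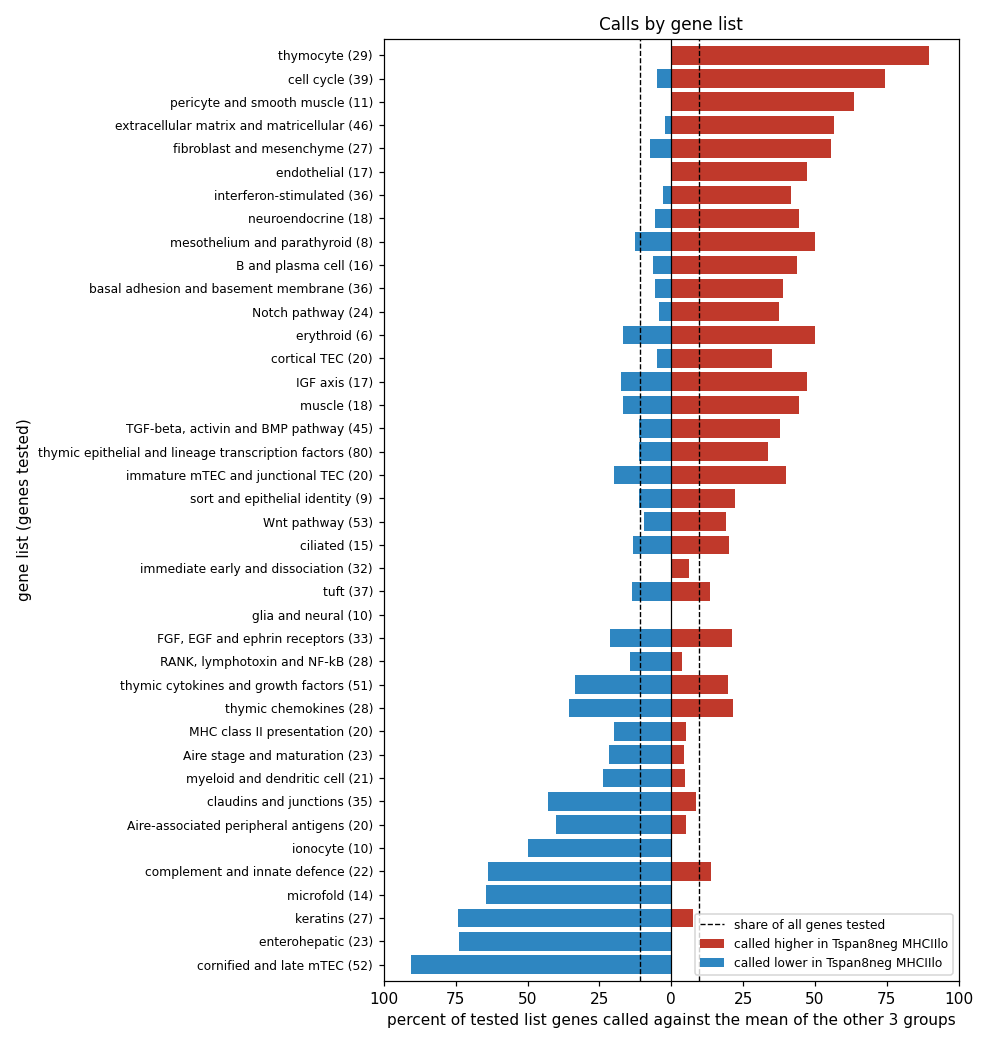
Percent of the tested genes of each of 40 lists called higher (red, right) or lower (blue, left) in Tspan8neg MHCIIlo than the mean of the other 3 subsets, with the number of genes tested in brackets and the share over all genes tested as dashed lines at 9.58% and 10.9%. The thymocyte list has the largest share called higher, 26 of 29, and the cornified list the largest share called lower, 47 of 52.

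Genes of basal epithelial adhesion and of the basement membrane were called higher more often than lower. Of 36 tested, 14 were called higher and 2 lower, with a median log2 fold change of 0.77, and 16 lay above all 6 other libraries. Without replicate 1 the calls were 12 higher and 3 lower, and without replicate 2 they were 18 and 1. Lamb3, a chain of laminin-332 in the anchoring zone below basal cells, was at 1207 and 847 normalized counts against 140.1 to 261 in the other libraries (log2 fold change 2.44 ± 0.18, adjusted p = 2.40e-06). Itgb4, the integrin chain of hemidesmosomes, was at 2928 and 2299 against 736 to 1151 (1.55 ± 0.11, adjusted p = 2.13e-06). The type IV collagen chains Col4a1 and Col4a2 had log2 fold changes of 2.10 and 2.40. Itga6, the partner of Itgb4, was at 2366 and 1439 against 1030.3 to 1764 and overlapped the other subsets. Col17a1, another hemidesmosome component, was at 209 and 230.0 against 93.8 to 745 and was not called. The 2 genes called lower were Itgb8 and Itga2.

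The list of immature mTEC and junctional markers was split. Of 20 genes, 8 were called higher and 4 lower (median 0.51), 6 and 4 without replicate 1, 9 and 3 without replicate 2. Against Tspan8pos MHCIIlo alone, 5 were called higher and 6 lower. Besides Ccl21a and Pdpn the higher genes included Fst, a secreted activin antagonist, at 317 and 137 against 8.81 to 66.6. Lifr, the receptor of leukaemia inhibitory factor, was at 1874 and 1056 against 131 to 473, and Krt14, a keratin of basal cells, at 4133 and 2463 against 710.1 to 1085. Krt5, the usual partner of Krt14, was at 9088 and 6047, so that replicate 2 lay within the Tspan8pos libraries (5923 to 6823) and replicate 1 above them, with 1282 and 1136 in Tspan8neg MHCIIhi. Krt15 was below all 6 others at 35.1 and 36.4 against 89.04 to 289, and Cldn3 and Cldn4 were also called lower. Trp63, the p63 factor of basal epithelia, lay above all 6 at 631 and 486 against 220.2 to 422, with a log2 fold change of 0.85 that was under the limit for a call.

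Of 46 tested genes of the extracellular matrix, 26 were called higher and 1 lower, with a median log2 fold change of 1.51 (25 and 2 of 48 genes without replicate 1, 22 and 3 of 48 without replicate 2). Col6a1, a chain of the microfibrillar type VI collagen, was at 3831 and 2177 against 216 to 621 (log2 fold change 3.24 ± 0.19, adjusted p = 6.59e-07), and Col6a2 at 1995 and 1117 against 97.9 to 439. Fmod, a collagen-binding proteoglycan, was at 164 and 135 against 3.67 to 22.9 and Mmp9, a gelatinase, at 1121 and 752 against 79.99 to 396. Ccn1, a matricellular protein and common target of YAP and TEAD, was at 3132 and 2628 against 429.6 to 986. For all of these genes the 2 groups of libraries did not overlap. The fibrillar collagen Col1a1 did not follow them, with 53.9 and 194 in the subset against 71.5 to 428 elsewhere. Against Tspan8neg MHCIIhi alone, 19 genes of the matrix list were called higher and 8 lower.

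Chemokines changed in both directions. Of 28 tested, 6 were called higher and 10 lower. Cxcl12, the ligand of Cxcr4, was at 277 and 260.2 against 21.5 to 49.3 and Cxcl14 at 148 and 105 against 8.95 to 20.5, and with Ccl21a they were the 3 genes of this list, which leaves out Gm21541, above all 6 libraries. Ackr4, a decoy receptor for Ccl19, Ccl21 and Ccl25, was called higher at 95.2 and 114, though it was at 224 and 198 in Tspan8pos MHCIIlo. Among the lower chemokines were Ccl5, at 37.6 and 39.5 against 440.3 and 543 in Tspan8neg MHCIIhi and 32.04 and 27.7 in Tspan8pos MHCIIlo, and Ccl20, at 71.4 and 265 against 232 to 1091. Cxcl13, which attracts B cells, was at 0 and 3.12 against 7.39 to 123, with 0 and 3 counts in the subset, at or under the floor of 3 counts. Ccl19 and Ccl25 were not called.

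Cytokines and growth factors were called lower more often than higher (17 and 10 of 51). The median log2 fold change was -0.58 with both libraries, -0.96 without replicate 1 and -0.25 without replicate 2. Areg and Ereg, ligands of the EGF receptor, were below all 6 others, with Areg at 13.8 and 27.1 against 43.1 to 350.0. Il33, an alarmin of epithelial cells, was at 28.8 and 13.5 against 137 to 179.9 in the Tspan8pos libraries and 11.7 and 24.1 in Tspan8neg MHCIIhi. Tnfsf11, the RANK ligand, was called higher at 36.3 and 113 against 0 to 8.43. Its level in replicate 2 was over that in replicate 1, as for the thymocyte genes. The part of thymocyte RNA in the Tnfsf11 level was not tested. Of 28 genes of the RANK, lymphotoxin and NF-kB list, 1 was called higher and 4 lower. These were 3.57% and 14.3%, against 9.58% and 10.9% over all genes tested. Against Tspan8neg MHCIIhi alone, 5 were called higher and 13 lower (median log2 fold change -0.82). Of the 28 genes, 2 lay above and 8 below all 6 libraries, beside 16.2% and 15.3% of all genes tested.

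Genes of TGF-beta, activin and BMP signalling were higher more often than lower (17 and 5 of 45 called, median log2 fold change 0.63). Ltbp3 and Ltbp4, which hold latent TGF-beta in the matrix, were at 782 and 548 against 40.3 to 109 and at 624 and 488 against 33.1 to 175. Tgfbi, a secreted matrix protein induced by TGF-beta, was at 1577 and 767 against 94.4 to 199.6 (log2 fold change 3.16 ± 0.23, adjusted p = 2.05e-06). Chrd, an antagonist of BMP ligands, was at 114 and 106 against 10.8 to 27.1, and the BMP target Id1 at 408 and 299 against 42.1 to 209.5. The ligands Tgfb2, Bmp2, Bmp3 and Bmp6 and the antagonist Grem1 were called lower. Without replicate 1, 13 were called higher and 6 lower, and without replicate 2, 18 and 5.

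Of 17 genes of the insulin-like growth factor axis, 8 were called higher and 3 lower. The binding proteins differed among themselves. Igfbp5 was at 4422 and 3792 against 503 to 2428, Igfbp4 at 867 and 621 against 92.96 to 267 and Igfbp3 at 408 and 238 against 27.7 to 159, whereas Igfbp6 and the ligand Igf1 were called lower. Among the receptors for FGF and related ligands, Fgfr2, a receptor for Fgf7 and Fgf10, was at 1018 and 551 against 103 to 239. Fgfr1 and Fgfr4 were also called higher and Fgfr3 lower, with 7 calls in each direction among 33 genes of the list.

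Of 24 Notch pathway genes, 9 were called higher and 1 lower. The median log2 fold change was 0.51 with both libraries, 0.49 without replicate 1 and 0.60 without replicate 2. The ligands Jag2 and Dll1 were above all 6 libraries, Jag2 at 828 and 722 against 64.4 to 207 and Dll1 at 338 and 269 against 56.4 to 111, and the target Hey1 was at 169 and 149 against 28.3 to 75.2. Jag1 was at 640.0 and 261 against 169 to 907 and was not called. Of 53 Wnt pathway genes, 10 were called higher and 5 lower than the mean, but 7 higher and 11 lower than Tspan8neg MHCIIhi. Fzd2, a Wnt receptor, was at 167 and 133 against 11.6 to 22.2, and Kremen2, a co-receptor of Dkk1, at 220.4 and 197 against 14.8 to 129. Lef1 and Tcf7, nuclear effectors of the pathway that thymocytes also express, were among the 10. Lef1 was at 126 and 274 and Tcf7 at 625 and 1617, higher in replicate 2 for both.

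Of 80 transcription factors, 27 were called higher and 9 lower (21 and 10 without replicate 1, 27 and 9 without replicate 2). Snai2, Zeb1 and Tead2 were above all 6, with Zeb1 at 198 and 168 against 22.4 to 51.2 and Snai2 at 219 and 101 against 10.1 to 40.1. Sox4 was at 1663 and 1693 against 607 to 695. Pax1, an early thymic factor, was called higher at 477 and 346 against 159.6 to 263, whereas Pax9 at 492 and 367 and Foxn1, the central factor of thymic epithelium, at 301 and 265 were not called. The factors called lower were Elf5, Tbx2, Dlx3, Tbx3, Grhl3, Barx2, Grhl1, Elf3 and Tbx21. Grhl3, needed for epidermal barrier formation, was at 82.7 and 65.6 against 236 to 769.

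The widest gaps above all other libraries belonged to genes of several kinds. Pth, parathyroid hormone, led with 596 and 674 normalized counts against 1.20 to 44.4, 49.0 times the mean of the other 3 subset means. It was in the mesothelium and parathyroid list, where 4 of 8 genes tested were called higher and 1 lower. The median log2 fold change of this list was 0.33, -0.60 without replicate 1 and -0.22 without replicate 2. Its summed level was 4584 and 5231 against 1389 to 4809, so the sums overlapped. Gcm2, a factor needed for the parathyroid gland, and Casr, the calcium-sensing receptor, were in this list but not among the 20 widest gaps. Gcm2 was at 21.3 and 19.8 against 0 to 16.2, and Casr at 190.4 and 125 against 49.9 to 91.5. Chga, a secretory granule protein of endocrine and parathyroid cells, was in this list and among the 20, at 2185 and 2812 against 166 to 393. Slc27a3, of the fatty acid transport protein family, was at 286 and 289 against 19.6 to 41.9. Sult5a1, a sulfotransferase, was at 650.0 and 374 against 13.7 to 58.9. Wfikkn2, a secreted protein that binds myostatin and related ligands, was at 1550.5 and 886 against 102 to 182. The hedgehog co-receptors Boc and Gas1 were both among the 20, Boc at 1259.9 and 817 against 32.5 to 185 and Gas1 at 352 and 272 against 9.79 to 54.2. Pltp, a phospholipid transfer protein, was at 948 and 816 against 110.1 to 189.8. The remaining genes among the 20 were Rcn3, Palm, Acta1, Myl9, Tagln, Jchain, Cd3g and Cd3e, together with Ltbp3, Cxcl12, Ccl21a and Gm21541 given above. Of these 20 genes, Boc and Cd3e overlap another annotated gene on the same strand, introns included, and Ccl21a, Gm21541, Sult5a1, Acta1, Ltbp3, Gas1, Cd3e, Rcn3, Tagln, Palm and Pltp overlap one on the opposite strand. Of the genes given in other paragraphs, Casr, Cd74, Cfb, Cftr, Col4a1, Crp, Ctsl, Fgfr2, Flg, Hnf4g, Igkc, Itga6, Jag2, Lamb3, Lef1, Pdgfra, Ptprc, Tcf7, Trp63 and Zeb1 have such a partner on the same strand, and others, such as Chrd and Tead2, on the opposite strand. Whether the counting used strand could not be settled.

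**Figure D3:**
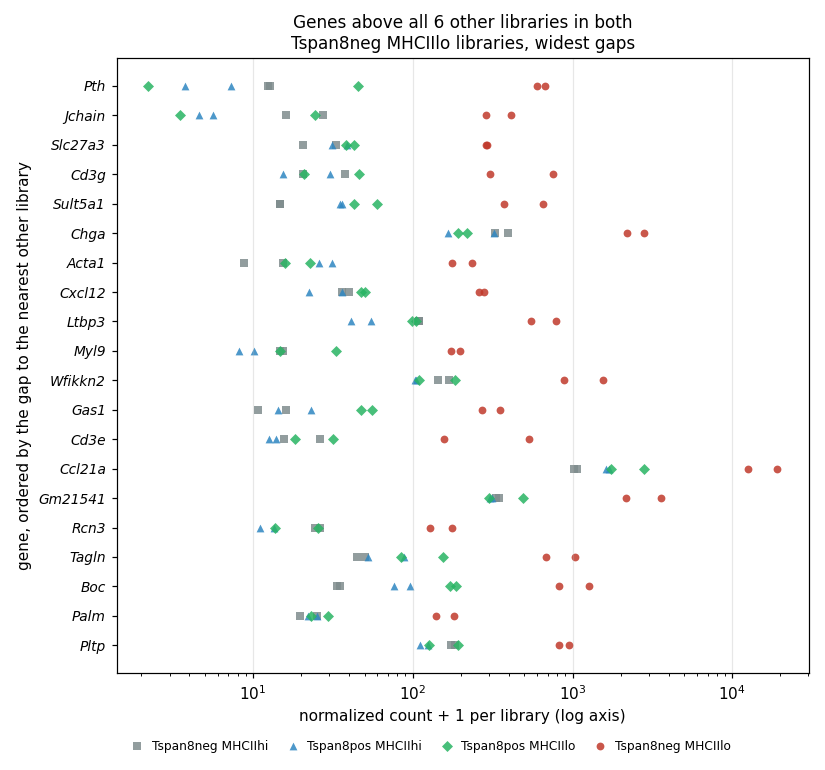
Normalized count + 1 in each of the 8 libraries (log axis) for the 20 named genes with the widest gap above all 6 other libraries, in order of the gap, with the 2 Tspan8neg MHCIIlo libraries as red circles. The red circles lie to the right of every other symbol, as the rule requires, and Cd3g and Cd3e show the widest distance between the 2 red circles.

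Of 18 neuroendocrine genes, 8 were called higher and 1 lower (10 and 1 without replicate 1, 4 and 1 without replicate 2). Chgb was at 203 and 346 against 51.9 to 162, and Calca, which encodes calcitonin and its gene-related peptide, was the gene called lower at 40.1 and 52.04 against 30.7 to 497. Of 18 muscle genes, 8 were called higher and 3 lower than the mean of the other 3 subsets, but 3 were called higher and 5 lower than Tspan8neg MHCIIhi (median log2 fold change -0.46). Their summed level was 1795 and 1294 in the subset and 2815 and 2701 in Tspan8neg MHCIIhi. Acta1, skeletal actin, was at 233 and 176 against 7.83 to 30.3, and Myog, a factor of muscle differentiation, at 118 and 110.3 against 7.16 to 34.5. Tnnt2, cardiac troponin T, was below all 6 at 47.6 and 55.2 against 246 to 583.

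Of 29 thymocyte genes tested, 26 were called higher, with a median log2 fold change of 2.41, and 24 lay above all 6 libraries. Without replicate 1, 30 of 30 were called higher and without replicate 2, 19 of 29. Cd3g and Cd3e, chains of the T cell receptor complex, were at 303 and 755 and at 155 and 533, against 14.3 to 45.1 and 11.6 to 30.7. Dntt, the terminal transferase of immature thymocytes, was at 361 and 1075 against 22.4 to 99.8. Ptprc, which encodes CD45 and so the antigen that the gate left out, was at 398 and 904 against 55.8 to 321. The summed level of the 30 listed genes was 5636 and 14532 in Tspan8neg MHCIIlo and 1158 to 2571 in the other libraries, and no listed gene was at 0 in the subset.

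Of 16 B and plasma cell genes, 7 were called higher and 1 lower. Igkc and Jchain, parts of secreted antibody, were at 2223 and 3782 and at 284 and 413, against 12.3 to 194 and 2.46 to 26.4. The summed level of this list was 5046 and 8665 against 619 to 1627. Without replicate 2 the calls were 5 higher and 1 lower and the median log2 fold change was 0.033, against 0.93 with both. Of 21 myeloid and dendritic cell genes, 1 was called higher and 5 lower (2 and 7 of 24 without replicate 1, 1 and 8 of 23 without replicate 2), with a summed level of 1821 and 2714 against 3474 to 7550.0. The part of lymphocyte RNA in the other results was not tested.

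Of 27 fibroblast and mesenchyme genes, 15 were called higher and 2 lower, and the summed level was 10787 and 8770.2 against 4948 to 6998. Mgp, matrix Gla protein, was at 644 and 352 against 23.5 to 91.2, and Pdgfra, a growth factor receptor of mesenchyme, at 23.8 and 21.9 against 2.41 to 17.3. Pdgfrb was at 53.9 and 121 against 51.8 to 279 and was not called. Without replicate 1 the calls were 13 higher and 2 lower, and without replicate 2 they were 9 and 5. Of 17 endothelial genes, 8 were called higher (4 of 18, with 1 lower, without replicate 1, 7 of 19 without replicate 2), with a summed level of 2381 and 1449 against 707 to 1708, so the sums overlapped. Cdh5, the vascular cadherin, was at 167 and 85.3 against 8.95 to 98.6 and overlapped the Tspan8pos MHCIIlo libraries. Against Tspan8pos MHCIIlo alone, 1 endothelial gene was called higher and 1 lower. Of 11 genes of pericytes and smooth muscle, 7 were called higher, with a summed level of 6425 and 4503 against 1193 to 3671, and Higd1b was at 0 in the subset. Against Tspan8neg MHCIIhi alone, 4 genes of this list were called higher and 2 lower (median log2 fold change 0.18). Acta2 and Tagln, actin cytoskeleton genes of smooth muscle, were at 956 and 585 and at 1033 and 679, against 75.8 to 144 and 43.9 to 153. Several of these genes are also in the matrix list. The part of these cell types in the matrix and TGF-beta results was not tested, and in bulk samples fewer cells of a type and less RNA per cell cannot be told apart.

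**Figure D4:**
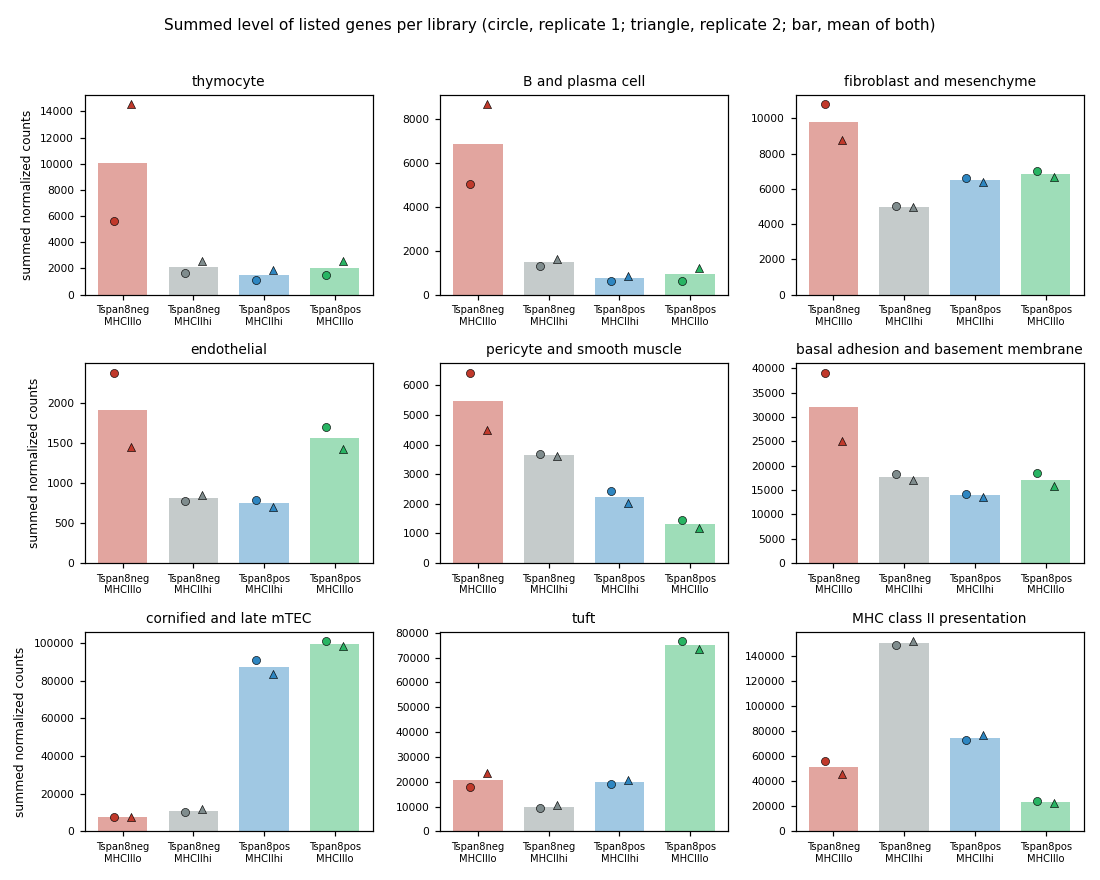
Summed normalized counts of 9 gene lists in each library (circles, replicate 1; triangles, replicate 2) and the mean of the 2 libraries of a subset (bars). The thymocyte sum is 5636 and 14532 in Tspan8neg MHCIIlo against at most 2571 elsewhere, and the cornified sum is 7881 and 7802 against 10489 to 100907 elsewhere.

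Of 39 cell cycle genes, 29 were called higher and 2 lower than the mean of the other 3 subsets, 31 and 2 without replicate 1 and 23 and 2 without replicate 2. Against the subsets singly, 6 were called higher than Tspan8neg MHCIIhi, 31 higher than Tspan8pos MHCIIhi and 31 higher than Tspan8pos MHCIIlo. Mki67 was at 982 and 1468 in the subset, at 1284 and 1122 in Tspan8neg MHCIIhi and at 126 to 281 in the 4 Tspan8pos libraries. Mcm5, part of the replicative helicase, was above all 6 at 338 and 529.7 against 39.4 to 211. The 2 genes called lower were the inhibitors Cdkn2a, at 32.6 and 30.2 against 77.03 to 351, and Cdkn1a. The median ratio of replicate 2 to replicate 1 was 1.51 for this list and 2.59 for the thymocyte list, and the part of thymocyte RNA in the cell cycle values was not tested.

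Interferon-stimulated genes were called higher in 15 of 36 cases and lower in 1, 11 and 1 without replicate 1 and 16 and 1 without replicate 2. Mx2, an antiviral GTPase, was at 324 and 211 against 38.2 to 86.3 and Ifit3 at 944 and 532 against 105 to 330.3. Oas2 was at 441 and 404 and did not exceed the 535 and 611 of Tspan8pos MHCIIlo. Of 32 immediate early genes, which are known to respond to tissue digestion, 2 were called higher than the mean, Socs3 and Jun. The median log2 fold change was 0.34 with both libraries, 0.392 without replicate 1 and 0.373 without replicate 2. Against Tspan8neg MHCIIhi alone, 13 were called higher and 1 lower (median log2 fold change 0.79). Against Tspan8pos MHCIIhi 1 was called higher and 3 lower, and against Tspan8pos MHCIIlo 2 higher and 5 lower. In this list 11 genes lay above all 6. The summed level of the list was 165825 and 155830.1 against 97212 to 150601.

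Genes of cornified epithelium and late mTECs had the lowest median of the 40 lists. Of 52 tested, 47 were called lower, with a median log2 fold change of -3.53, and 33 lay below all 6 libraries. The calls were 46 lower without replicate 1 and 44 lower without replicate 2. Against single subsets, 21 were called lower than Tspan8neg MHCIIhi, 49 lower than Tspan8pos MHCIIhi and 48 lower than Tspan8pos MHCIIlo. Krt10, a keratin of differentiating keratinocytes, was at 148 and 242 normalized counts against 270.1 and 389 in Tspan8neg MHCIIhi and 7192 to 8788 in the Tspan8pos libraries. Flg, filaggrin, was at 32.6 and 37.5 against 72.4 to 2688 (log2 fold change -4.07 ± 0.19, adjusted p = 2.94e-07), and Klk7, a protease of skin shedding, at 27.6 and 31.2 against 123 to 2867. Ivl, involucrin, was at 41.3 and 29.1 and overlapped Tspan8neg MHCIIhi at 43.1 and 25.9. Of 27 keratins, 20 were called lower and 2, Krt14 and Krt5, higher (18 and 1 without replicate 1).

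Of 23 enterohepatic genes, 17 were called lower (14 without replicate 1 and 18 without replicate 2). Reg3g, an antibacterial lectin of the gut, was at 449.6 and 829 against 1137 to 25853, and the acute phase gene Saa1 at 23.8 and 62.4 against 256 to 3554. Hnf4g, a nuclear receptor of gut epithelium, was below all 6 at 11.3 and 8.33 against 32.04 to 99.4. Of 14 microfold genes 9 were called lower, and of 10 ionocyte genes 5 (3 without replicate 2), among them Cftr at 31.3 and 41.6 against 88.5 to 534. Of 22 genes of complement and innate defence, 14 were called lower and 3 higher. The higher 3 were C1s1, C1ra and Cd59a, with C1s1, a protease that starts the classical pathway, at 808 and 455 against 52.8 to 175. The lower ones included Wfdc2 at 133 and 226 and Cfb, complement factor B, at 80.2 and 116 against 199.7 to 599. Of 35 claudins and junction genes, 15 were called lower and 3 higher (10 and 5 of 36 without replicate 2). The 3 were Cdh3, the placental cadherin of basal cells, Cldn9 and Cdh5. Several of these lists differed less from Tspan8neg MHCIIhi alone. Against it, 12 enterohepatic and 2 microfold genes were called lower, and 5 ionocyte genes lower and 1 higher. Complement and innate defence had 7 lower and 3 higher (median log2 fold change -0.17), and junction genes 7 lower and 4 higher (median -0.18).

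The 20 named genes with the widest gaps below all 6 libraries included mucins, a keratin and transporters. Hal was at 30.1 and 38.5 against 607 to 1036, 23.9 times under the mean of the other subset means. Muc5ac, a gel-forming mucin, was at 17.5 and 51.00 against 368 to 1142, and Muc2, the main mucin of the colon, at 6.26 and 0 against 96.1 to 244. Psca, a Ly6 family surface protein of glandular epithelium, was at 8.77 and 7.29 against 143 to 318 and its relative Lypd2 at 6.26 and 8.33 against 107 to 561. Krt4, a keratin of mucosal epithelia, was at 3.76 and 3.12 against 87.1 to 425, with 3 counts in each library of the subset. Slc5a8, a monocarboxylate transporter, was at 13.8 and 17.7 against 213 to 455 and Atp12a, a proton pump, at 0 and 3.12 (0 and 3 counts) against 45.01 to 299.5. Me1, the cytosolic malic enzyme, was at 115 and 133 against 774 to 1717 and Dnase1l3, a secreted nuclease, at 90.2 and 135 against 855 to 1620.1. Prn had 0 counts in both libraries of the subset against 75.8 to 448, at least 77.2 times lower when set at 3 counts per library, but its counts are uncertain since Prnp and Prnd share its strand and overlap it. The other genes were Hsd17b14, Chit1, Pigz, Pla2g3, Bpifc, Psors1c2, Slc4a9, Mfsd4a and Sprr1b, each with at most 24 counts in a library of the subset. Among the 20, Pigz and Me1 also overlap another annotated gene on the same strand, and Pla2g3, Atp12a, Mfsd4a and Me1 overlap one on the opposite strand.

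**Figure D5:**
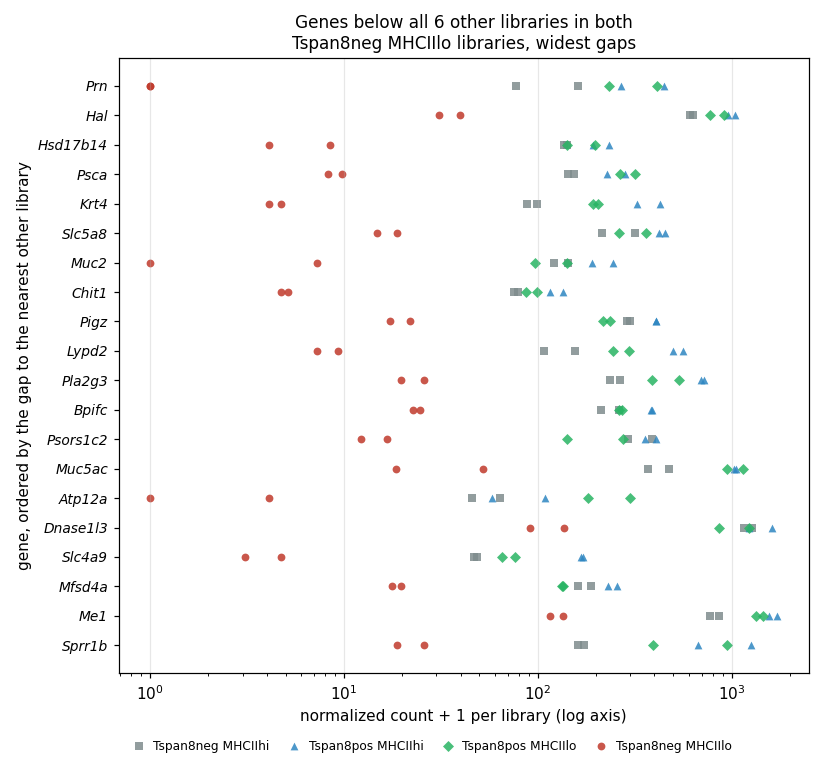
Normalized count + 1 in each of the 8 libraries (log axis) for the 20 named genes with the widest gap below all 6 other libraries, in order of the gap, with the 2 Tspan8neg MHCIIlo libraries as red circles. The red circles lie to the left of every other symbol, as the rule requires, and 0 counts are drawn at 1.

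Aire was at 947 and 903, against 12508 and 11626 in Tspan8neg MHCIIhi, 1807 and 2443 in Tspan8pos MHCIIhi and 66.6 and 156 in Tspan8pos MHCIIlo, and was not called against the mean of the 3 (log2 fold change -0.63 ± 0.21, adjusted p = 0.0289). Of 23 genes of the Aire stage, 13 were called lower than Tspan8neg MHCIIhi, and 7 were called higher and 2 lower than Tspan8pos MHCIIlo. Of 20 MHC class II presentation genes, 14 were called lower than Tspan8neg MHCIIhi, 6 lower than Tspan8pos MHCIIhi, and 11 higher than Tspan8pos MHCIIlo. Cd74, the invariant chain, was at 24958 and 20858 against 8012 to 70947. Ctsl, a protease that trims the invariant chain in cortical epithelium, was the gene called higher against the mean, at 4251 and 2673 against 649.7 to 1743. Of 20 tissue-restricted antigens linked to Aire, 8 were called lower and 1 higher, with a median log2 fold change of -1.92 (-1.35 with genes at 0 set at the floor). Csn2, a milk casein, was at 134 and 237 against 377 to 3978, and Crp, C-reactive protein, was the 1 called higher at 83.9 and 51.00 against 4.93 to 41.5.

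Of 37 Tuft genes, 26 were called higher than Tspan8neg MHCIIhi, 30 were called lower than Tspan8pos MHCIIlo, and none was above all 6 libraries. Trpm5, the cation channel of taste transduction, was at 1524 and 2092, against 198 and 213 in Tspan8neg MHCIIhi, 1210.2 and 1515 in Tspan8pos MHCIIhi and 9177 and 9283 in Tspan8pos MHCIIlo. Of 20 cortical TEC genes, 7 were called higher and 1 lower than the mean (7 and 3 without replicate 2), but 5 were called higher and 8 lower than Tspan8neg MHCIIhi. Their summed level was 6812 and 6209 against 6709 and 7574 in Tspan8neg MHCIIhi. Prss16, the thymus-specific serine protease, was at 262 and 609 against 59.1 to 187, and Psmb11, the subunit of the thymoproteasome, was at 28.8 and 83.3 against 9.86 to 42.1 and not called. Of 15 ciliated cell genes 3 were called higher and 2 lower (2 and 0 of 16 without replicate 1).

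At the edge of the rule the gap to the nearest library was small, whatever the difference between the means. Just inside, Pomt1 was at 86.4 and 136 against at most 86.3 and Spink1 at 12.5 and 48.9 against at least 48.9, although its log2 fold change against the mean of the other 3 subsets was -3.56. Just outside, Wwtr1, the transcriptional co-activator TAZ, was at 417 and 169.6 against at most 170.1, and 2200002D01Rik was at 32.6 and 31.2 against at least 32.5.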

How the data were processed

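RNA-seq was measured in 8 libraries of sorted mTECs, 2 per subset. Estimated counts for each gene were deposited by the authors in 1 table, as whole numbers without normalization. According to the submitters' processing notes these came from FastQC and Salmon 1.8.0 with mm10. cDNA pre-amplification is given in the methods and a strand-specific kit in the labels, so overlapping genes are uncertain. Symbols came from the GENCODE annotation of GRCm38 (25336 of 25466 matched).

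The counts were tested in R 4.3.3 with edgeR 4.0.16 (quasi-likelihood test, TMM, filterByExpr, 1 fit of 8 libraries, Benjamini-Hochberg adjustment over 17006 genes, two-sided), with DESeq2 1.42.0 as an alternative and for size factors. The floor was 3 counts. The floor covers counting error only. The standard errors cover the spread between libraries, which was estimated in 1 fit shared by the 4 subsets. The Tspan8neg MHCIIlo libraries differed from each other more than the other replicates. Standard errors and p-values may therefore be too small for this subset. Tested on simulated data for the contrast against the mean of the other 3 groups, the fit recovered 91% of 200 changed genes among 17006 with 1 false call. The simulation gave all genes and libraries the same dispersion and the other 3 groups equal means. It therefore checks the code and does not give the error rate in these data.

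Named genes were Ccl21a, Pdpn, Tspan8, H2-Ab1 and Epcam, the 20 called protein-coding genes per direction with the widest gap (mean of at least 50 normalized counts, pseudocount 5), genes of the 40 lists, and those just inside and outside the rule. The members and lists were chosen with earlier results of these data known. Same-numbered libraries had correlated deviations of -0.002 to 0.0897, so the numbers were not used as pairs. Alternatives were other tests, scalings, filters, thresholds and margins, the replicate number as a block, and leaving out each library. Thinning to 1941518 counts was chosen after seeing the data. Some listed genes are not reported here.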

Additional observations from a re-analysis of the deposited data

How the results depend on the processing

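Of the counts and fold changes recomputed under other settings, the totals for the 4 comparisons stayed within 1.5 times the reported values under DESeq2's Wald test, other size factors and other filters on low counts. The contrast against the mean of the other 3 subsets, with 3478 calls, gave 310 (223 higher and 87 lower) when the 6 other libraries were fitted as 1 group, which puts the differences between those subsets into the spread, and 5421 with no limit on the fold change. The same grouping left 53 of 265 higher and 8 of 215 lower calls over the listed genes. Asking for the nearest library to be at least 1.5 or 2 times away left 1022 or 562 of 3168 genes above and 1187 or 731 of 2782 below. Leaving out 1 library gave 3025 to 3393 calls against the mean, 2360 to 3759 against Tspan8neg MHCIIhi (2360 without Tspan8neg MHCIIhi replicate 2), 2989 to 4242 against Tspan8pos MHCIIhi and 2273 to 3740 against Tspan8pos MHCIIlo (2273 without Tspan8pos MHCIIlo replicate 2). It gave 3239 to 5468 genes above (5468 without Tspan8neg MHCIIlo replicate 1 and 5207 without replicate 2) and 2926 to 4100 below. It gave 239 to 252 higher and 199 to 213 lower calls over the listed genes.

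Scaling by the raw total raised the subset by 0.14 on the log2 scale against the others and gave 3978 genes above and 2261 below. Thinning every library to the smallest total, added after seeing the data, gave 3000 calls against the mean. Where 1 Tspan8neg MHCIIlo library was left out, the lone library was assumed to vary like the other groups.

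With the replicate block the 4 comparisons gave 3549, 3970, 4328 and 3792 calls, against 3478, 3866, 4204 and 3640 without it. Over all genes the deviations of same-numbered libraries were correlated at 0.0897 or less, so the numbers were not read as pairs. Some lists did follow the number in all 4 subsets: the summed level was higher in replicate 2 for thymocyte and for B and plasma cell genes, and higher in replicate 1 for basal adhesion and for matrix genes. With the block 29 of 29 thymocyte genes were called higher, against 26 without it.

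Fold changes against the mean were recomputed for 136 single genes, and 66 of them lost their call in at least 1 setting. Single genes that were not called against the mean changed sign in some settings. The log2 fold change of H2-Ab1, near 0, was -0.0123 with DESeq2's Wald test, -0.0126 with DESeq2 size factors, -0.0242 without a filter, and -0.51 with the 6 other libraries as 1 group, where that of Trpm5 was -0.98. Leaving out 1 library gave -0.13 to 0.16 for H2-Ab1, -1.43 to 0.43 for Col1a1, -0.98 to 0.30 for Jag1 and -1.15 to 0.024 for Pdgfrb. The cause was not tested.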

Other observations

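Immunoglobulin variable genes, which belong to none of the lists above, had a higher summed level in Tspan8neg MHCIIlo. Of 95 in the table, 24 passed the filter on low counts and 21 were called higher by edgeR, and their summed level was 1841 and 2987 normalized counts in the subset against 28.4 to 141 in the other 6 libraries. T cell receptor variable genes were fewer, with 5 of 50 past the filter and 5 called higher, and summed to 160.3 and 315 against 12.3 to 62.5. For both groups replicate 2 was the higher library of the subset, as for the thymocyte list. With sums this low in the other 6 libraries, the filter on low counts favoured genes with counts in the subset. The numbers of genes called higher therefore do not test the direction for either group, and the sums are given as a description.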
